A study of Homo sapiens with 8 samples.

Results

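The genes described here are 10 protein-coding genes of the epithelial and mesenchymal states, out of 19970 in the annotation, and they were listed by name. Every accessible region within each gene span or 20 kb either side of it was taken, which gave 76 of the 96872 regions of the series. CDH1, CLDN4 and EPCAM make up the epithelial side and CDH2 and VIM the mesenchymal side. ZEB1, ZEB2, SNAI1, SNAI2 and TWIST1 are the regulators of the switch. CDH1 and CLDN4 were selected on the number of libraries that called a peak at their promoters, which was higher in the mutant group, so those values are given as a description with no test.

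Epithelial cells hold together through E-cadherin (CDH1) at adherens junctions and through claudins at tight junctions. In the epithelial-mesenchymal transition this set is lowered and N-cadherin (CDH2) and vimentin (VIM) are raised. The zinc-finger proteins ZEB1, ZEB2, SNAI1 and SNAI2 bind E-box elements with the core CACCTG and repress CDH1 among other junction genes. TWIST1, a basic helix-loop-helix factor, binds the wider E-box class CANNTG.

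The data are 8 ATAC-seq libraries, 4 per group, in which Tn5 transposase marks accessible DNA. All were made from HEK293T, an embryonic kidney line with SV40 large T antigen, with no treatment. The 4 H2A libraries carry a lentivector for histone H2A, and the 4 E92K libraries carry one for H2A(E92K), in which a lysine replaces an acidic-patch glutamate of the nucleosome surface. The labels name no promoter for the vectors, no clone and no loss of the cells' own H2A genes, and do not say whether replicates were separate cultures, so a p-value here speaks of the spread among these libraries alone, and that spread may be technical. Peaks had been called in each library on its own, and the lists held 57439 to 62044 peaks in H2A and 55527 to 61850 in E92K. The genome-wide background recovered from the lists, a measure of depth, was 2.52 to 2.93 fragments per position in H2A and 2.23 to 2.68 in E92K. A deeper library calls weaker peaks, so absence from a list means not called at this depth and is no measure of closed chromatin. As a check of the cell type, promoters of 8 of 9 nephron progenitor and ureteric markers and 4 of 4 neuronal markers had a peak in every library, beside 68.0% of all coding genes, while PAX8 had none. Of the blood markers 3 of 4 had none, and PTPRC was called in 1 E92K library. Of 5 differentiated tubule markers 1 was called in every library and the other 4 in none. Of 3 endothelial markers KDR was called in every library and the others in none, and of the 2 hepatocyte markers APOA1 was called in 1 E92K library and ALB in none.

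Peaks at the canonical starts of the mesenchymal genes and regulators were called in every library, whereas those of CDH1, CLDN4 and EPCAM were not. That contrast is partly set by how CDH1 and CLDN4 were chosen. The sequences below show starts of both sides of the switch. They run from 250 bases before to 50 after the start, 5′ to 3′ along the gene, and come from RefSeq on GRCh38.p14. Of the 10 genes, 5 were matched by symbol, with 12 entries in all, since ZEB1 and CDH2 have more than 1. A single entry per gene is described, at the canonical start. CDH1, EPCAM, SNAI1, SNAI2 and TWIST1 were not matched. Capitals mark the GC box GGGCGG and the E-box core CACCTG, each on either strand.
CLDN4 promoter, chr7:73830746-73831045, plus strand: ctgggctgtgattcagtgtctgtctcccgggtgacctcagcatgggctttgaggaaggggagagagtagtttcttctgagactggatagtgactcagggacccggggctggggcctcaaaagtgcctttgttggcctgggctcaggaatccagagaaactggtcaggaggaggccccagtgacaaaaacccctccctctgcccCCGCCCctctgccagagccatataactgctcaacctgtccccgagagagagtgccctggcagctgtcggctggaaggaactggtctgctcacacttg
CDH2 promoter, chr18:28177081-28177380, minus strand: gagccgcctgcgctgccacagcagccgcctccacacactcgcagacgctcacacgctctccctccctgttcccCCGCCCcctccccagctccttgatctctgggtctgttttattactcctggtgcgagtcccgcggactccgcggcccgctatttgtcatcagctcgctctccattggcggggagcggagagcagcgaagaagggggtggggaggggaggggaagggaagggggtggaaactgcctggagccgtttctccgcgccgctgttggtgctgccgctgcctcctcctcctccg
VIM promoter, chr10:17227991-17228290, plus strand: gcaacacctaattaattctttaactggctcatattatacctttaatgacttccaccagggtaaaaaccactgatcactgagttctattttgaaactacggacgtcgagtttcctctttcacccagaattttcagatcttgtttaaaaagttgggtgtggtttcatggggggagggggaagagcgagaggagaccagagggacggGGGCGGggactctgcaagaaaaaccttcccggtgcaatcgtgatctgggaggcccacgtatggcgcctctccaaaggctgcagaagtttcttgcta
ZEB1 promoter, chr10:31318966-31319265, plus strand: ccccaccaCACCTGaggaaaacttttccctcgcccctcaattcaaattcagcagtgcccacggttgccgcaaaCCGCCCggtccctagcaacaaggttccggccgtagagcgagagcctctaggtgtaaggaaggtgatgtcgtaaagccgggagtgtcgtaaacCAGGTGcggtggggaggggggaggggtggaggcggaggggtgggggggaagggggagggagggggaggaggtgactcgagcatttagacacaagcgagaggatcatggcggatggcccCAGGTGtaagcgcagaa
The ZEB1 stretch shown holds 3 CACCTG cores and 1 GC box, and no other ZEB1 entry holds more than 1 CACCTG core. The CLDN4, CDH2 and VIM stretches each hold 1 GC box and no CACCTG core. The ZEB2 stretch at chr2:144520070-144520369 holds neither. Among all 35116 RefSeq promoter entries of this length, 20.6% hold CACCTG and 45.0% hold the GC box. CACCTG is itself one of the CANNTG forms, which 68.7% of entries hold. These CDH2, VIM, ZEB1 and ZEB2 stretches lie under accessible regions called in every library, and the CLDN4 stretch lies under none. A further CDH2 entry at chr18:28036592-28036891 and a further ZEB1 entry at chr10:31321410-31321709 also lie under none.

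A further 3 sequences show distal or alternative-start regions, picked as examples and not by a rule. Each is the central 300 bases of the region on the plus strand of hg38.
CLDN4 upstream start region, chr7:73828274-73828573: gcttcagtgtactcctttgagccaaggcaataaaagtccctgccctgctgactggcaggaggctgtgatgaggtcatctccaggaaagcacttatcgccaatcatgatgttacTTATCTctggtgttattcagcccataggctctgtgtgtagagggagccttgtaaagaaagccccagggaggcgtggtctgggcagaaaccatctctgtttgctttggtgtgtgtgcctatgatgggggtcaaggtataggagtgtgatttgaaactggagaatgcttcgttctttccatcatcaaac
CDH1 intron region, chr16:68800571-68800870: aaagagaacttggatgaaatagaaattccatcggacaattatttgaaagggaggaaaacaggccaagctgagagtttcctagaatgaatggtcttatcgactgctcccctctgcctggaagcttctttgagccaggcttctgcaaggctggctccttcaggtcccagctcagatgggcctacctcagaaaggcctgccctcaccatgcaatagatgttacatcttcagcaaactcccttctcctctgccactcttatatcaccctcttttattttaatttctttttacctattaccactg
SNAI1 upstream region, chr20:49979185-49979484: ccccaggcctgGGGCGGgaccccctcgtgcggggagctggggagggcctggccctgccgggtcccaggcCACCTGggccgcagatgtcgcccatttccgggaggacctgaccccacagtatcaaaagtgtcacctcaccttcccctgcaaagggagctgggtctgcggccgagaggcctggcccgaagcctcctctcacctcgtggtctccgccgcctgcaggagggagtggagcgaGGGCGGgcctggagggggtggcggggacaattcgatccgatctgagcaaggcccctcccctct
In the CLDN4 region the capitals mark 1 match to the GATA factor consensus, a motif chosen after the data were seen, which 37.0% of all regions hold. In the SNAI1 region they mark 1 CACCTG core and 2 GC boxes. The CDH1 intron stretch holds none of these.

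The 10 genes had nearly the same number of accessible regions in both groups. An H2A library called 46, 47, 49 and 48 of the 76 regions in replicates 1 to 4, and an E92K library called 47, 52, 47 and 45. These are 47.5 ± 1.29 and 47.75 ± 2.99 (mean ± SD, n = 4 each), and the ranges overlap. In all, 33 of the 76 regions (43.4%) had a peak in every library, beside 38.1% of all regions of the genome, and 19 (25.0%) had one in a single library, beside 26.5%. More E92K than H2A libraries called 17 regions, more H2A than E92K libraries called 19, and 40 were called in equal numbers. No region of the 10 genes was called in 4 libraries of one group and 0 of the other, beside 0.323% of all regions. A lead of 3 or more libraries was seen toward E92K at 2 regions (background 1.16%), the CLDN4 upstream start and the EPCAM start, and toward H2A at 0 (background 1.38%). A lead of 2 or more was seen at 5 regions toward E92K (background 5.36%) and at 4 toward H2A (background 6.38%). The CLDN4 upstream start is among those 2, and it and the CDH1 start are among those 5. Both genes were chosen for that lead, so nothing is read from these counts toward E92K. By Fisher's exact test, two-sided, none of the 66 regions outside the CDH1 and CLDN4 windows passed after Benjamini-Hochberg adjustment over all 96872 regions, where 0% passed, and none had an unadjusted p under 0.05 (background 0.323%). The smallest exact p was 0.143, and 4 libraries against 4 cannot go below 0.0286.

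**Figure D1:**
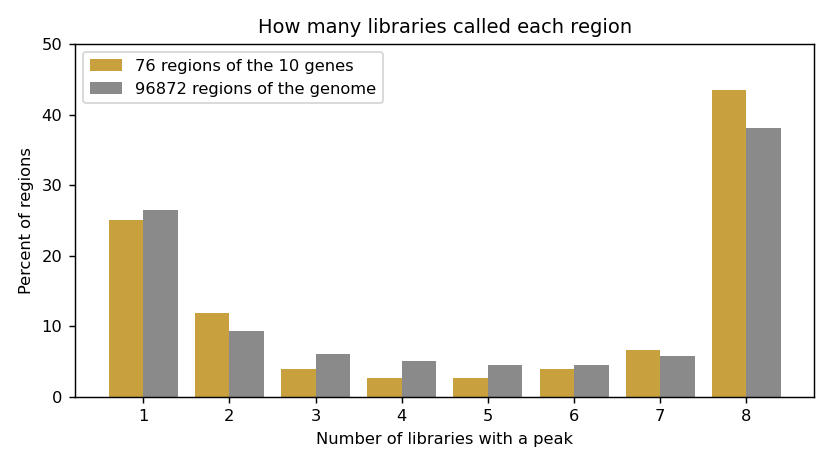
Share of regions (y axis, percent) by the number of the 8 libraries in which a peak was called (x axis), for the 76 regions of the 10 genes and for all 96872 regions. Both are highest at 8 libraries (43.4% and 38.1%) and at 1 library (25.0% and 26.5%).

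**Figure D2:**
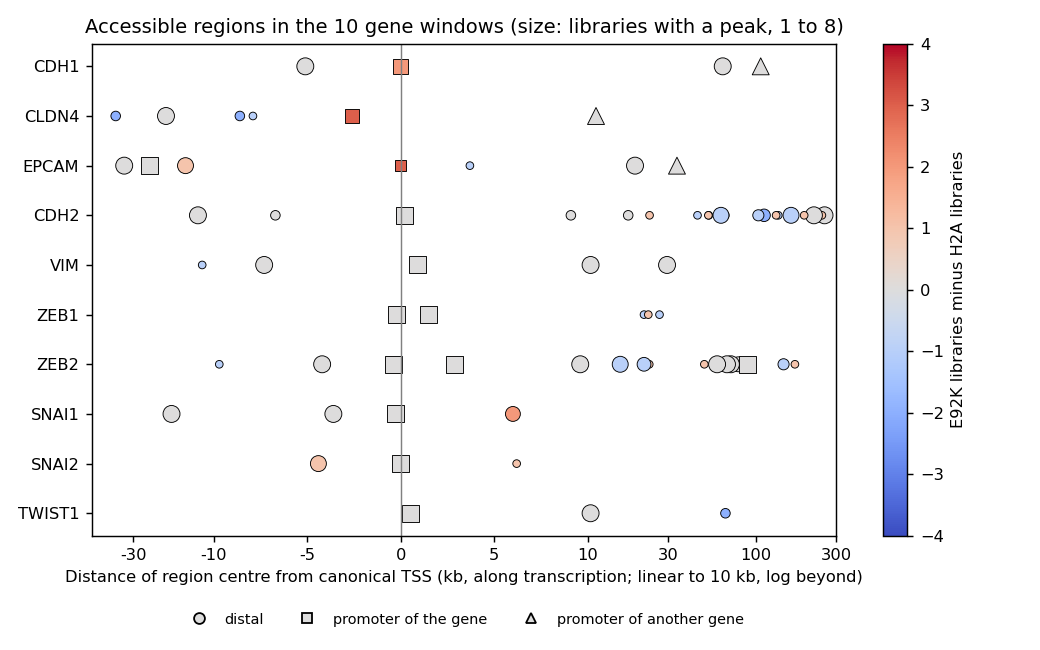
Each symbol is an accessible region of 1 of the 10 genes, placed by the distance of its centre from the canonical transcription start in kb along transcription (linear to 10 kb, logarithmic beyond). Symbol size is the number of libraries with a peak, colour is E92K minus H2A libraries, and the 3 red or orange squares are the CDH1, CLDN4 and EPCAM starts.

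At their canonical starts, CDH2, VIM and the 5 regulators had a peak in every library, beside 65.8% of all canonical starts. The 3 epithelial genes did not. Since CDH1 and CLDN4 were chosen for promoters called in more E92K libraries, this contrast is partly set by the choice of genes. Of the 14 regions that touch promoters of the 10 genes, 11 were called in every library, beside 85.3% of all promoter regions. The other 3 are the CDH1 start, the CLDN4 upstream start and the EPCAM canonical start, and each was called in more E92K than H2A libraries, by 2, 3 and 3. Among all promoter regions, 1.19% led by 2 or more libraries toward E92K and 1.85% toward H2A. Since CDH1 and CLDN4 were listed for this lead, nothing is read from it for them. The E92K libraries had a lower genome-wide background than the H2A libraries, 2.39 ± 0.204 against 2.67 ± 0.191 fragments per position (SD, n = 4 each). In bulk libraries a weak peak shared by all cells and a strong peak in few cells cannot be told apart.

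CDH1 encodes E-cadherin and lies at chr16:68737292-68835537 on the plus strand of hg38. The peak over its start and exon 1, chr16:68737083-68737520, was called in 2 H2A and 4 E92K libraries. Its fold enrichment, the authors' ratio of the summit over local background, was 3.81 and 5.25 in H2A replicates 1 and 3. In E92K replicates 1 to 4 it was 5.28, 6.25, 4.03 and 5.61, so the called values of the groups overlap. Where called, the peak stood at the 29.0th to 61.0th percentile of its own list and rested on 18 and 26 fragments in H2A and on 25, 34, 18 and 23 in E92K. All 6 calls also met a stricter q-value of 1e-05. The peak covered 256 and 268 bp of the promoter in the 2 H2A libraries and 255 to 382 bp in E92K.

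Away from the start, CDH1 was accessible in every library of both groups. A region 5.1 kb upstream had fold enrichments of 5.87, 6.16, 7.76 and 5.55 in H2A and 8.50, 7.14, 7.63 and 7.42 in E92K. The E92K values lie mostly above the H2A ones, but the highest H2A value exceeds 3 of the 4 E92K values. The strongest region of the gene lies in intron 2, 63.4 kb downstream of the start (chr16:68800211-68801230), at a median percentile of 89.4. Its fold was 10.2, 10.3, 10.0 and 9.67 in H2A and 7.30, 9.79, 7.44 and 10.1 in E92K, and the groups overlap there as well. The window also holds the promoter of TANGO6, called in every library.

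CLDN4 encodes the tight junction protein claudin-4 and lies at chr7:73799542-73832690 on the plus strand. No library of either group called a peak within 1000 bp of its canonical start, the start shown above. The called promoter peak lies 2.6 kb upstream, at chr7:73828184-73828664, beside starts of other CLDN4 transcripts in the annotation. It was called in H2A replicate 4 with a fold of 4.78 and in E92K replicates 1 to 4 with folds of 4.42, 3.36, 4.78 and 4.84. The lone H2A call lies within the E92K range and came from the deepest library of the 8. It rested on 34 fragments, and the E92K calls on 28, 24, 30 and 26. All 5 calls met the stricter q-value of 1e-05.

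By number of libraries, other CLDN4 regions did not lean toward E92K. A region 19.2 kb upstream of the canonical start was called in every library, with folds of 6.15 to 8.96 in H2A and 7.33 to 10.4 in E92K. Regions 38.2 kb and 8.6 kb upstream were each called in 2 H2A and 0 E92K libraries, and a region 7.9 kb upstream in 1 H2A library. The peak 38.2 kb upstream had folds of 7.36 and 5.09 in H2A replicates 3 and 4. The METTL27 promoter inside the window was called in every library. Mean fold was higher in E92K there (8.73 against 7.95) and 19.2 kb upstream (8.41 against 7.53), and the groups overlap at both.

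**Figure D3:**
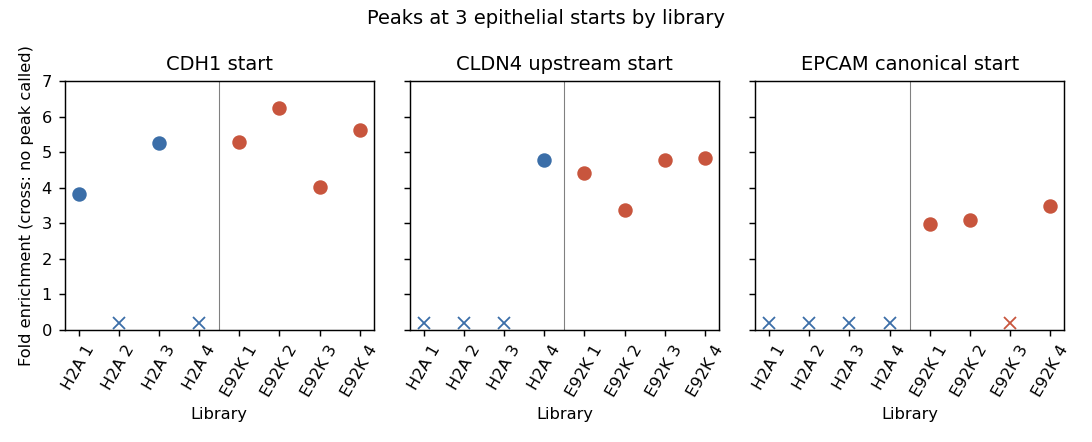
Fold enrichment of the authors' peaks (y axis, linear, from 0) at the starts of CDH1, CLDN4 and EPCAM in each library (x axis), with a cross where no peak was called. CDH1 was called in 2 H2A and 4 E92K libraries, the CLDN4 upstream start in 1 and 4, and the EPCAM canonical start in 0 and 3.

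EPCAM encodes an epithelial cell adhesion molecule and lies at chr2:47345158-47387601 on the plus strand. Its canonical start, chr2:47369045-47369500, was called in 0 H2A libraries and in E92K replicates 1, 2 and 4. The folds were 2.99, 3.10 and 3.48, at the 6.20th to 14.7th percentile of their lists, and the peaks rested on 12, 14 and 13 fragments. These are weak peaks, and 0 of the 3 met the stricter q-value of 1e-05. Fisher's exact test gave p = 0.143 and an adjusted p of 1. Of all regions, 0.584% were called in 0 H2A and 3 E92K libraries. Among all canonical starts, 0.0357% had an unadjusted p under 0.05, 0.617% led by 2 or more libraries toward E92K and 0.811% toward H2A.

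The main accessible start of EPCAM in these cells was another one. A region at chr2:47344541-47345724, 24.2 kb upstream of the canonical start, holds an alternative EPCAM start and the start of the divergent transcript EPCAM-DT. It was called in every library, with folds of 10.5, 8.65, 11.004 and 9.92 in H2A and 11.9, 10.1, 9.39 and 9.79 in E92K. It stood at a median percentile of 90.4, against 10.9 for the canonical start. The strongest distal region, 34.0 kb upstream, had folds of 9.93, 11.0002, 9.90 and 9.85 in H2A and 7.55, 8.42, 10.0 and 7.47 in E92K, and the groups overlap at E92K replicate 3. A region 14.7 kb upstream was called in 3 H2A and 4 E92K libraries and one 3.7 kb downstream in 1 H2A library. Another 19.1 kb downstream was called in every library.

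CDH2 encodes N-cadherin, the cadherin that replaces E-cadherin in mesenchymal and neural cells, and lies at chr18:27932879-28177946 on the minus strand. Its promoter region spans 3250 bp, at chr18:28175300-28178549, and was called in every library. The fold was 5.01, 4.48, 5.71 and 5.30 in H2A and 5.62, 4.88, 4.54 and 5.28 in E92K, with fully overlapping ranges. The window held 21 regions, more than that of any other of the 10 genes, but 8 of them were called in a single library and 4 in every library. Of the regions called in a single library 5 lie in intron 2. A region in intron 2, 111.6 kb downstream, was called in 3 H2A and 1 E92K libraries (Fisher's exact p = 0.486, adjusted p = 1), and another 163.1 kb downstream in 0 and 2 (exact p = 0.429, adjusted p = 1). The strongest distal region by percentile lies in intron 15, 220.7 kb downstream, with folds of 4.003, 4.82, 4.52 and 5.05 in H2A and 5.61, 5.20, 5.40 and 6.78 in E92K. Every E92K fold there is above every H2A fold, but the summits rested on 20 to 23 fragments in H2A and 20 to 26 in E92K, which overlap.

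VIM encodes vimentin, the intermediate filament of mesenchymal cells, and lies at chr10:17228241-17237593 on the plus strand. Its promoter region, chr10:17227421-17230812, spans 3392 bp and also holds the start of the antisense RNA VIM-AS1. The fold was 4.27, 4.27, 4.24 and 4.68 in H2A and 4.75, 5.18, 5.00 and 5.32 in E92K. Every E92K fold is above every H2A fold, and the gap between the groups is narrow. The summits rested on 143 to 191 fragments in H2A and 153 to 202 in E92K, which overlap. The strongest region of the VIM window lies 29.6 kb downstream of the start, at a median percentile of 86.7. Its fold was 9.13, 12.2, 10.98 and 9.42 in H2A and 9.09, 7.57, 10.2 and 9.55 in E92K, and the ranges overlap. Of the 5 regions of this window 4 were called in every library, which is 8.10 such regions per 100 kb, at the 94.1st percentile of coding genes (median 2.39).

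ZEB1 and ZEB2, paralogous zinc-finger repressors, differed in how much of their windows was accessible. ZEB1 lies at chr10:31318495-31529814 on the plus strand, and its window of 251.3 kb held 5 regions. The 2 that touch its promoter, with centres 0.1 and 1.5 kb from the nearest start, were called in every library. The 3 others, all in intron 1, were each called in a single library. That is 1.99 regions per 100 kb, at the 14.8th percentile of coding genes (median 5.22). The start region, chr10:31318341-31319791, had folds of 4.41, 5.38, 4.72 and 4.28 in H2A and 5.28, 4.67, 4.87 and 4.91 in E92K.

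ZEB2 lies at chr2:144364364-144521057 on the minus strand, and its window of 196.7 kb held 18 regions, of which 8 were called in every library. That is 9.15 regions per 100 kb, at the 82.7th percentile. Of its 3 promoter regions, the strongest lies at an alternative start 89.1 kb into the gene, with folds of 5.69, 5.40, 6.78 and 6.68 in H2A and 6.72, 7.48, 7.43 and 7.91 in E92K. The region at the canonical start had folds of 3.65, 2.84, 3.34 and 3.27 in H2A and 3.58, 3.13, 3.61 and 3.45 in E92K. The strongest distal region lies in intron 2, 58.7 kb downstream of the canonical start, with folds of 6.31, 6.42, 7.05 and 7.39 in H2A and 9.66, 6.38, 7.86 and 9.26 in E92K. At each of these 3 regions the groups overlap.

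SNAI1 (Snail) lies at chr20:49982980-49988886 on the plus strand. Its promoter, chr20:49982252-49983111, was called in every library, with folds of 6.93, 8.31, 7.94 and 7.44 in H2A and 6.03, 7.82, 6.06 and 5.23 in E92K. The E92K values are lower in 3 of 4 libraries, and replicate 2 lies within the H2A range. Regions 17.8 kb and 3.6 kb upstream were called in every library, the second being the one whose sequence is shown above. A weak region 6.0 kb downstream was called in 2 H2A and 4 E92K libraries (Fisher's exact p = 0.429, adjusted p = 1), with folds of 2.45 to 3.39.

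SNAI2 (Slug) lies at chr8:48917598-48921740 on the minus strand. Its promoter, chr8:48920675-48922092, was among the strongest of the 10 genes, at a median percentile of 86.4. The fold was 10.3, 9.63, 9.50 and 10.0 in H2A and 8.18, 8.46, 9.11 and 8.58 in E92K. Every E92K fold is below every H2A fold. The summits rested on 173 to 212 fragments in H2A and 131 to 163 in E92K, counts that also move with depth. A region 4.4 kb upstream was called in 3 H2A and 4 E92K libraries, and one 6.2 kb downstream in 1 E92K library.

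TWIST1 lies at chr7:19020991-19117636 on the minus strand. Its promoter, chr7:19116200-19118054, had folds of 5.67, 5.24, 7.18 and 6.05 in H2A and 6.67, 6.42, 6.23 and 6.55 in E92K, and the groups overlap. A region 10.4 kb downstream of the start was called in every library, with folds of 3.84, 4.25, 4.05 and 4.26 in H2A and 3.80, 3.58, 3.75 and 3.62 in E92K. All 4 E92K folds are below the lowest H2A fold. The summits rested on 19 to 25 fragments in H2A and 16 to 18 in E92K, counts that also move with depth. A region 65.8 kb downstream was called in 2 H2A and 0 E92K libraries (Fisher's exact p = 0.429, adjusted p = 1).

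Fold enrichment is the authors' ratio over the local background of each list, so it moves with that background. These separations compare folds across lists and are given without a test. Of the 33 regions called in every library, 2 had a higher fold in every E92K list (CDH2 intron 15 and the VIM promoter) and 2 a lower one (the SNAI2 promoter and the TWIST1 downstream region). Over all 36895 such regions of the genome, 3.96% were higher in every E92K list and 1.56% lower.

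**Figure D4:**
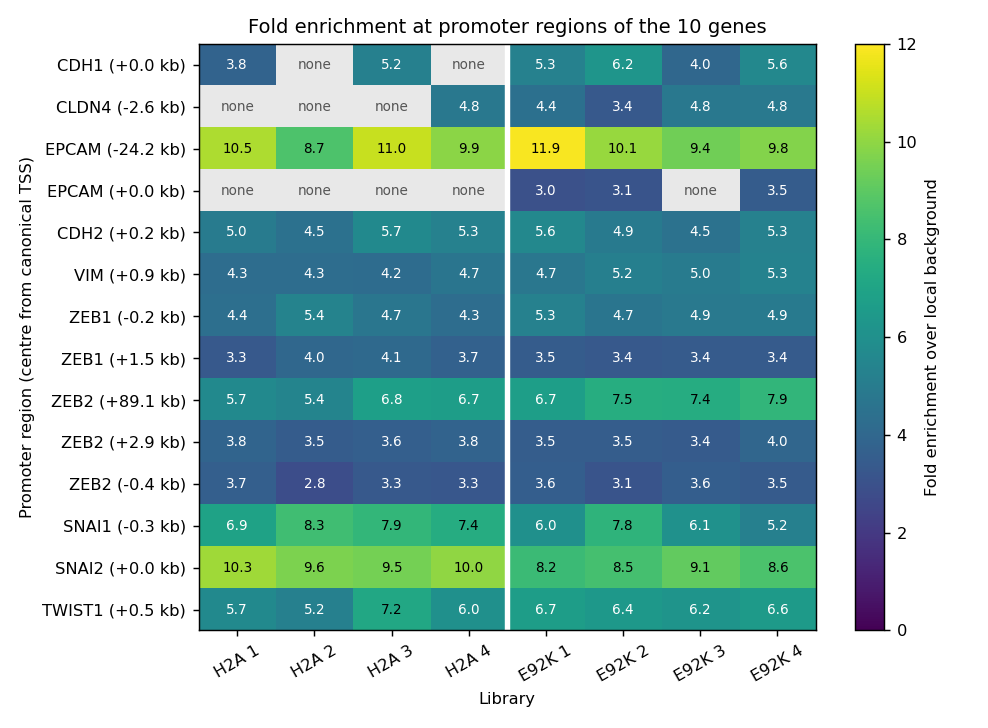
Fold enrichment of the authors' peak (ratio over local background) at each of the 14 promoter regions of the 10 genes (vertical axis, with the distance of the region's centre from the canonical start) in each library (horizontal axis), printed in each cell and coloured on a linear scale from 0 to 12, with none where no peak was called. Groups lie apart in fold at the VIM promoter (E92K higher, 4.75 to 5.32 against 4.24 to 4.68) and the SNAI2 promoter (E92K lower, 8.18 to 9.11 against 9.50 to 10.3).

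The stretch of promoter under a peak is a second measure, which the choice of genes did not use for the 8 genes other than CDH1 and CLDN4. All 8 promoters were called in every library, beside 68.0% of 19617 coding genes, with an exact Fisher p of 1 for each (0.0306% of genes had an unadjusted p under 0.05). The EPCAM promoters, all starts joined, were covered over 1033, 1113, 1127 and 1010 bp in H2A and 1506, 1260, 1051 and 1347 bp in E92K. That is 1071 ± 57.9 against 1291 ± 190 bp (SD, n = 4 each), and the exact two-sided permutation test over 70 assignments gave p = 0.0857 and an adjusted p of 1. At the upstream start alone the E92K peaks covered 1144, 992, 1051 and 1113 bp. The 3 peaks at the canonical start added 362, 268 and 234 bp in E92K replicates 1, 2 and 4. The difference between the groups thus comes almost wholly from those same 3 weak calls. The ZEB1 promoters were covered over 1398, 1382, 1396 and 1439 bp in H2A and 1020, 1397, 1366 and 1316 bp in E92K, or 1404 ± 24.6 against 1275 ± 173 bp (SD, n = 4 each), with the same exact permutation p of 0.0857 and an adjusted p of 1. E92K replicate 1 is the low library there. The other 6 genes gave larger exact permutation p-values, from 0.2 to 0.486. At none of the 8 genes did every E92K library lie above every H2A library (background 0.586%) or below (background 2.25%). None of the 8 passed after adjustment over all genes, where 0% passed, and none had an unadjusted p under 0.05, beside 2.84% of genes.

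**Figure D5:**
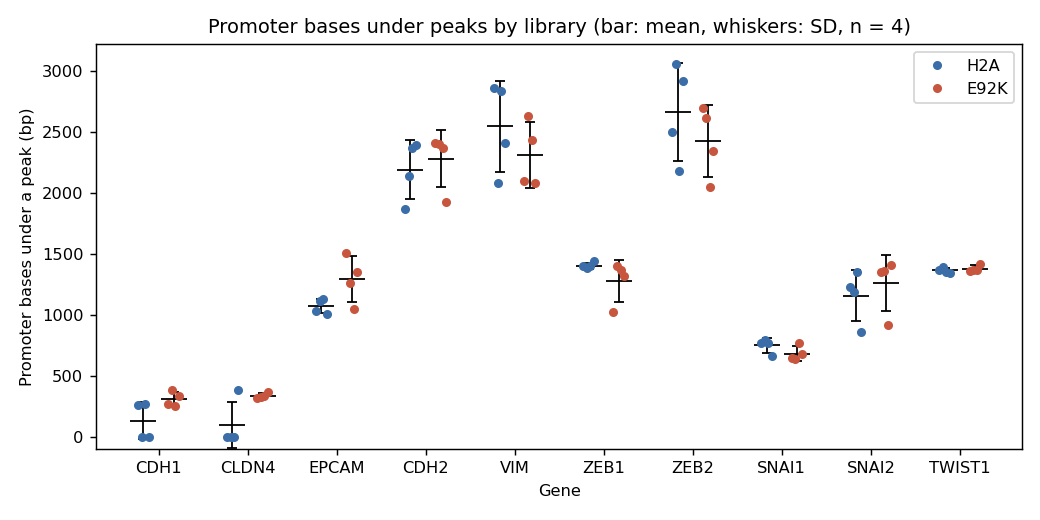
Promoter bases under a peak (y axis, bp) in each library for the 10 genes, H2A and E92K side by side, with the mean and SD of each group of 4. CDH1 and CLDN4 include libraries at 0 bp, and the other 8 genes are covered in every library.

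Other genes of the same pathways were taken from fixed lists, which were chosen with earlier results of these data known. Of 44 further epithelial genes, 26 (59.1%) were called at their promoters in all 8 libraries and 12 (27.3%) in none, beside 68.0% and 25.6% of all coding genes, and 6 were mixed, 3 with more E92K and 3 with more H2A libraries. A lead of 2 or more libraries toward E92K was seen at 0 of them (background 0.642%), and toward H2A at 2 (background 0.841%). These are PPL, which encodes the desmosomal linker periplakin, and PRSS8, which encodes the membrane protease prostasin, each called in 2 H2A and 0 E92K libraries. The genes named next were picked after the values were seen. Among the epithelial transcription factor genes, GRHL1, GRHL3, OVOL2 and ELF3 were called in every library and GRHL2 and OVOL1 in none. Among the keratin genes, KRT8 and KRT18 were called in every library and KRT19 in none. Of 9 genes for the adherens junction core, 8 were called in every library (88.9%, beside 68.0% of all coding genes) and NECTIN4, named as the exception after the values were seen, in none.

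Of 34 further mesenchymal genes, 26 (76.5%) were called in every library and 4 (11.8%) in none, beside 68.0% and 25.6% of all coding genes. CDH11, which encodes another mesenchymal cadherin, was called in 1 H2A and 3 E92K libraries. Among all coding genes, 0.642% led by 2 or more libraries toward E92K and 0.841% toward H2A. The full count of such leads in this list is not reported here. By Fisher's exact test CDH11 did not pass (p = 0.486, adjusted p = 1), nor did any other gene of the 3 lists. The median difference between the groups was 0 libraries in each list and over all coding genes.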

How the data were processed

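Accessible DNA was measured by ATAC-seq in 8 HEK293T libraries, grouped by the titles into 4 H2A and 4 E92K. Reads had been aligned to hg38, per the labels. What aligned the reads, called the peaks and shifted the cut sites is not given in the sources used here, and each list is taken as deposited. Each library had 1 deposited peak list of 10 columns, called on its own. The deposited score is a whole number per peak, 10 times the −log10 q rounded down in nearly every line. The deposited fold is the authors' ratio of a summit over its local background, and so it moves with that background. Percentiles of fold were taken within each list, and folds were set side by side across lists without a test. The deposited p-values and q-values are −log10 values, with every q-value at or under 0.01.

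Overlapping or touching peaks of the 8 lists were joined into regions, and a library called a region where its peaks covered 1 bp or more. Promoters reached 1000 bp to either side of each start of a basic protein-coding transcript of GENCODE version 44. The fragment pileup behind each summit was recovered from fold and p as a whole number for 99.8% to 99.98% of summits per list, within 0.001 of the −log10 p. Presence was tested by two-sided Fisher's exact test, and promoter bases under a peak by an exact two-sided permutation test over 70 assignments, each with Benjamini-Hochberg adjustment over all regions or coding genes. The procedures were tested on simulated data. Python 3.11.15, numpy 2.4.6, pandas 2.3.3, scipy 1.17.1 and matplotlib 3.10.9 were used.

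The genes and lists were chosen with earlier results of these data known. Named were every promoter region of the 10 genes, every region with a lead of 3 or more libraries, the strongest distal region per gene by median percentile of fold within a list, and listed genes with a lead of 2 or more. Further regions of the 10 windows were named to account for each gene. Alternatives were a q-value of 1e-05, equal numbers of peaks, lists thinned to the lowest genome-wide background, leaving out each library, other overlaps, flanks of 10 and 50 kb, promoters of 500 and 2000 bp, a replicate block and, added after the data were seen, canonical starts alone. Total read numbers were not analysed here, and some items that meet these rules are not reported here.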

Additional observations from a re-analysis of the deposited data

Results flagged for a closer look

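Within groups of 4 libraries, 44 sets of values were examined for a library that lies apart by Dixon's test at the 95% level, and 4 were found. The sets were promoter fold, promoter bases under a peak and the number of regions called per library. Chance gives about 1 in 20. At the VIM promoter the fold in H2A replicate 4 was 4.68, beside 4.24 to 4.27 in the other H2A libraries. At the CDH2 promoter 1928 bp were under a peak in E92K replicate 4, beside 2372 to 2411 bp. At the SNAI2 promoter 913 bp were under a peak in E92K replicate 3, beside 1353 to 1409 bp. At the TWIST1 promoter the value was 1419 bp in E92K replicate 4, beside 1359 to 1369 bp.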

How the results depend on the processing

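For the values given without a test, 70 were recomputed under an alternative, of which 67 stayed alike, 3 moved and 0 reversed. Of these, 14 each are the promoter leads of CDH1 and CLDN4, which chose those genes, so they say nothing about stability. A count could change by a set ratio and still be called alike, as 22 beside 33 was. A difference was called alike if it moved by less than the SD between libraries. The count of regions called in 4 libraries of one group and 0 of the other, 0 in all 8 libraries, ranged from 0 to 1 when each library was left out in turn. With a library left out, its group was judged on the 3 that remained. The count was 1 without H2A replicate 4, the CLDN4 upstream start, and 1 without E92K replicate 3, the EPCAM canonical start. In each case the library left out was the only one that broke the pattern. With canonical starts alone, an alternative chosen after seeing the data, the CLDN4 lead of 3 libraries became 0. Regions called in every library, 33 in all, ranged from 22 where a peak had to cover 50% or more of a region to 42 with a flank of 50 kb. The difference in regions called per library, 0.25, ranged from -2 to 1.17, within the spread between libraries. The 3 tests gave 0 calls after adjustment under every alternative run, which says nothing about stability, since the smallest exact p of 0.0286 is too large to pass adjustment over all regions or genes unless very many reach it. Leaving out E92K replicate 3 gave 1 region with an unadjusted Fisher's exact p of 0.0286. For promoter bases under a peak, leaving out E92K replicate 2 or 3, or promoters of 2000 bp, each gave 1 unadjusted exact permutation p of 0.0286.

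No pairing of the libraries by replicate number was seen in the calls. Same-numbered libraries deviated from their group means with correlations of -0.0135 to -0.0015, and 0 correlated best with its own number. With the replicate block, 0 regions and 0 promoters passed, and the smallest exact p was 0.25 for regions and for covered bases and 1 for promoter presence, in a design that cannot go below 0.125.

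The weakest calls rest on few fragments. The EPCAM canonical start was called from 12 to 14 fragments, and 0 of its 3 calls met a q-value of 1e-05. Accessibility alone was measured, and no expression level of these genes is in the lists.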

Other observations

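The genes with the same pattern of promoter calls over the 8 libraries as CDH1 or CLDN4 are given as a description, since those calls chose the genes. Of 19617 genes, STOML3 and NFIC matched CDH1, with median percentiles within the lists of 26.1 and 11.8, beside 48.3 for CDH1. The pattern of CLDN4 was matched by 4 genes, FRMPD2, ANXA9, GRIP2 and FAM83E, with median percentiles of 23.5, 13.4, 6.81 and 1.33, beside 38.5 for CLDN4. NFIC encodes a nuclear factor I protein and ANXA9 an annexin.

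Distal regions of the 10 genes called in every library held the CACCTG core in 7 of 19 cases (36.8%), beside 24.7% of 23873 such regions of the genome. Over all their distal regions the order was the other way, with 12 of 59 (20.3%) beside 22.8% of 81613, and over all 70 regions searched it was 13 (18.6%) beside 22.7%. The 7 include the CLDN4 region 19.2 kb upstream, both SNAI1 upstream regions and the TWIST1 region 10.4 kb downstream. Matches to the CTCF core, a motif chosen after the data were seen, were found in 0 of the 19 and in 10.8% of the genome's regions of this kind. Over all 59 distal regions there were 2 (3.39%), beside 5.45% of 81613, and over all 70 searched also 2 (2.86%), beside 4.82%. Counts this small are given as a description. Each search covered both strands of the central 300 bases, and a match is a description of letters and not of binding.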
